A study of Mus musculus with 4 samples.

Results

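Myelin is the membrane that oligodendrocytes wrap around axons, and the 9 genes described here encode 6 of its proteins and 3 enzymes of its lipids and metabolites: Mbp, Cnp, Mag, Mog, Mobp, Cldn11, Ugt8a, Fa2h and Aspa. The members were all probe sets of the expression array that the platform annotation assigned to one of these genes and to no other gene. They numbered 21 of the 20380 probe sets with 1 gene symbol, and 9 of the 12393 genes. Mbp had 8 of them, Cnp and Mobp had 3 each, Ugt8a had 2, and Mag, Mog, Cldn11, Aspa and Fa2h had 1 each. They were measured in 3 arrays labelled Olig1 KO and in 1 wild-type array. All 4 samples were neural stem cells of the ganglionic eminences, the ventral forebrain swellings, of mouse embryos at embryonic day 14.5, on the C57/Bl6 background, kept without serum in a medium with EGF. The protein of Olig1 is a basic helix-loop-helix regulator of oligodendrocyte development, and the comparison asks which transcripts differ in such cultures when Olig1 is mutated. The allele is not described in the labels. Nor do they say that each KO sample had its own embryo or culture, so p-values rest on the spread of these samples alone, which may be technical. The KO samples titled 37 and 38 are called replicates 2 and 3, and the one with no number in its title is replicate 1.

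Compact myelin is held together by basic proteins such as that of Mbp, while the cytoplasm-containing loops and the inner surface facing the axon carry Cnp and Mag. Myelin lipids are rich in galactosylceramide, made by the enzyme of Ugt8a, and in lipids hydroxylated by that of Fa2h. These genes come on strongly when a precursor stops dividing and becomes an oligodendrocyte, so in a dividing stem cell culture they are usually low. Some have other sites of use: the Mbp locus also gives golli transcripts from an upstream start, Cldn11 makes tight junctions in the testis and the meninges, and Aspa is used in the kidney.

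The promoter sequences are shown for 3 genes whose values the results below turn on: Mag and Cldn11, whose signals were higher in every KO array than in the wild-type array, and Cnp, whose 3 probe sets were above background in every array. They come from RefSeq on GRCm38.p6, read 5′ to 3′ on the gene's strand, and are cut where the gene's outermost annotated start begins. The E-box, CANNTG, the kind of motif that basic helix-loop-helix factors bind, is in capitals, so a sequence with no capitals holds none in this window.
Mag (chr7:30914923-30915172, minus strand, 250 bases): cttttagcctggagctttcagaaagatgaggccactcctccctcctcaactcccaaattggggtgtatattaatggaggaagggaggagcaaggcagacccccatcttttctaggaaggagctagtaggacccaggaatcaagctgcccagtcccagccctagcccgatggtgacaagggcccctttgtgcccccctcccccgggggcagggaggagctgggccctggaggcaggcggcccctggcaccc
Cldn11 (chr3:31149670-31149919, plus strand, 250 bases): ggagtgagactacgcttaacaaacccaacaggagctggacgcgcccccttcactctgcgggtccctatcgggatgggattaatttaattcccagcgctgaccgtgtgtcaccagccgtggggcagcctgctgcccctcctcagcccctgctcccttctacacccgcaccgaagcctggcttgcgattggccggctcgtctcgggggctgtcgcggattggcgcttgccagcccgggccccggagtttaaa
Cnp (chr11:100574689-100574908, plus strand, 220 bases): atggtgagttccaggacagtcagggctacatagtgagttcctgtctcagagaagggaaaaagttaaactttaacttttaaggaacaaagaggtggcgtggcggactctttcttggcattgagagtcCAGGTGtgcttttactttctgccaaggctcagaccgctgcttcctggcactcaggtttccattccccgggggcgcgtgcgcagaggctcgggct
Promoters of 7 member genes, in 9 windows of 250 bases, were in the table, and an E-box on either strand was found in 5 of the 9 windows. Of all 32851 promoter windows of this length, 66.2% held one. The Cnp window held 1 E-box, CAGGTG. The other annotated starts of Mag, further downstream, had 1 and 2 E-boxes in their windows. The Aspa window lies inside the annotated gene, before an inner start and not before the outermost one. It held 3 E-boxes and also 3 copies of ACAAT, the core of the motif of Sox factors. ACAAT was found in none of the other 8 windows and in 27.7% of all windows. Either strand was searched for both motifs. A match here is a description of letters and was not compared with any binding.

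Signals are the authors' MAS5 values, which are linear. Since probe sets differ in how brightly they report, levels are compared between arrays and never between genes. An array's background was taken as its highest signal among 27 bacterial control probe sets with no target in the sample. It was 21.3, 39.99 and 87.8 in KO replicates 1, 2 and 3, and 30.5 in the wild-type array. In the median, the 18 spike-in control probe sets were 0.898, 1.89 and 2.75 times as bright in KO replicates 1, 2 and 3 as in the wild-type array. Xist, made from the inactive X chromosome, was 8472, 160.9 and 46.5 in the KO replicates and 9480 in the wild-type array. Eif2s3y, a gene of the Y chromosome, was 1.53, 653.8 and 1160 in the KO replicates and 0.608 in the wild-type array. By both genes, KO replicate 1 and the wild-type array formed one pair, with signals as in female cells. KO replicates 2 and 3 formed another, with signals as in male cells. By these signals, KO replicates 2 and 3 differed from the only wild-type array in sex as well as in genotype. The 18S ribosomal RNA control probe sets, with a median signal of 7.24, 945.6 and 2823 in KO replicates 1, 2 and 3 and 4.64 in the wild-type array, split the arrays in the same way. The ratio of the 3′ to the 5′ actin probe set, a sign of RNA integrity, was 1.25, 1.30 and 1.82 in the KO replicates and 1.11 in the wild-type array. The same ratio for Gapdh was 0.794, 1.03 and 0.842 in the KO replicates and 0.759 in the wild-type array. Within a pair, genotypes could be set side by side only in 2 single arrays. The Olig1 probe set itself gave 3840, 4438 and 8548 in the KO replicates and 7618 in the wild-type array. It did not separate the genotypes. The allele is not described, so what this probe set would report from it was not known here, and directions rest on the labels. All 8 measured neural stem cell markers, Sox2, Nes and Egfr among them, were above background in all 4 arrays.

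Expression of the myelin genes ranged from clear to undetected in these cultures. Of the 21 probe sets, 8 were above background in all 4 arrays, 7 in 2 or 3 arrays and 6 in none; over all probe sets, 59.5% were above it in all 4 arrays and 13% in none. The number above background was 11, 12 and 14 in KO replicates 1, 2 and 3 and 12 in the wild-type array. At least 1 probe set was above background in all 4 arrays for 4 genes, Mbp, Cnp, Aspa and Fa2h. Mog and Mobp were at background in every array with every probe set. In such a culture, fewer cells of a type and less RNA per cell cannot be told apart.

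**Figure D1:**
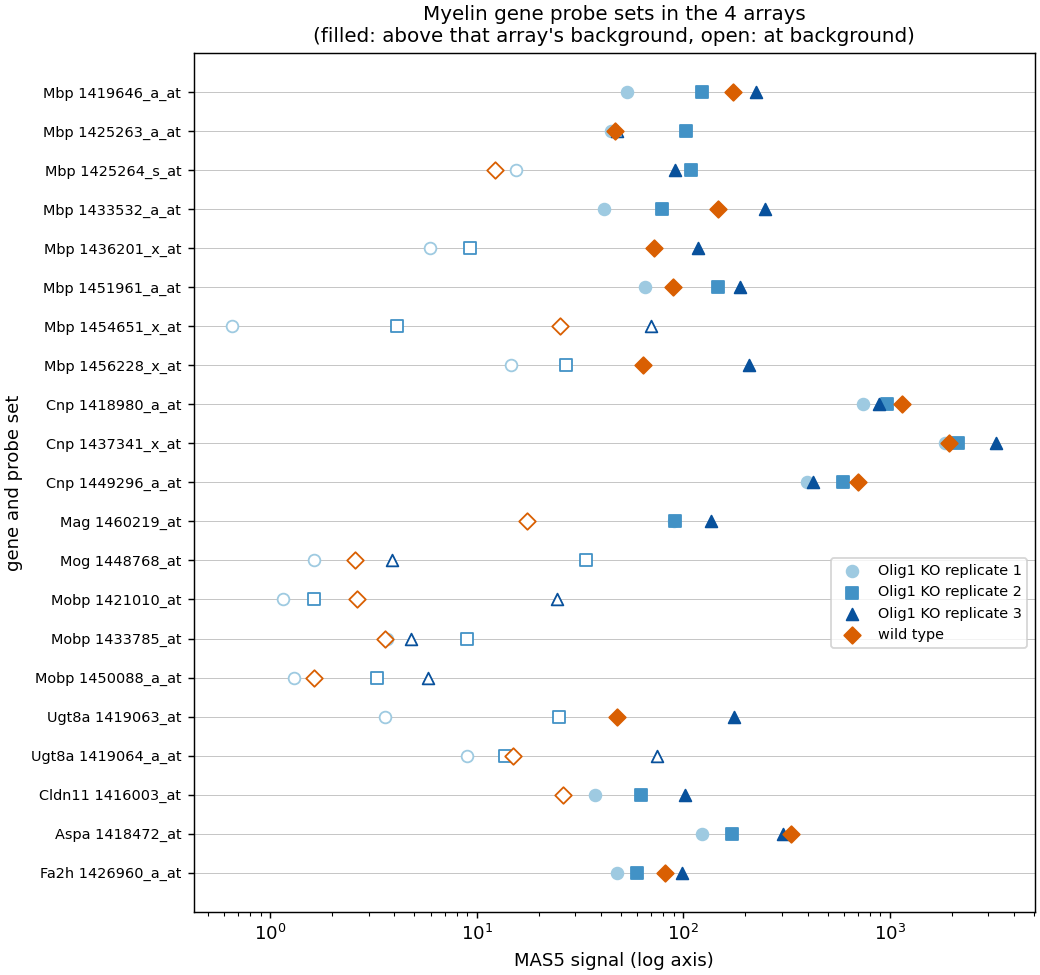
MAS5 signal (log axis) of each of the 21 probe sets in the 3 Olig1 KO arrays (blue) and the wild-type array (orange). Filled points are above that array's background and open points are not; the 4 open points of Mog and of each Mobp probe set lie at background in every array, and the wild-type point of Mag is open while its KO points are filled.

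None of the 9 genes passed the test of KO against wild type. Differences are on the log2(signal + 14.4) scale, on which dim genes show too small a change, and were tested with limma over all probe sets. Of the 21 probe sets, 0 were higher and 0 were lower in KO at an adjusted p under 0.05, where the background was 0% of 20380 probe sets in each direction. At an unadjusted p under 0.05 there was 1 member probe set, that of Mag, where the background was 2.73% (557 probe sets). In the gene fit, which kept the 60% of genes with the highest means and used 1 probe set per gene, 3 members were kept, Mbp, Cnp and Aspa. None of these 3 passed, where 0 of 7436 genes did at an adjusted p under 0.05 and 2.26% had an unadjusted p under 0.05. The spread was estimated from the KO arrays, on the assumption that the single wild-type array varies as they do. The wild-type array lay within the range of the KO arrays for 14 of the 21 probe sets, below all of them for 4 and above all of them for 3, where 24.9% of all probe sets were higher and 20.9% lower in every KO array. As multiples of each array's own background, the wild-type array lay within the KO range for 9 of the 21, below all KO arrays for 4 and above all of them for 8, where 6.45% of all probe sets were higher and 12.9% lower in every KO array. Of the 8 member probe sets above background throughout, the wild-type array was above all KO arrays for 3 by signal and for 6 on this scale. The shares above cover all probe sets, detected or not. No share was taken over the probe sets above background throughout, so these 2 counts have no matching rate. The median difference over the 21 probe sets was 0.15, and over all probe sets it was 0.02.

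**Figure D2:**
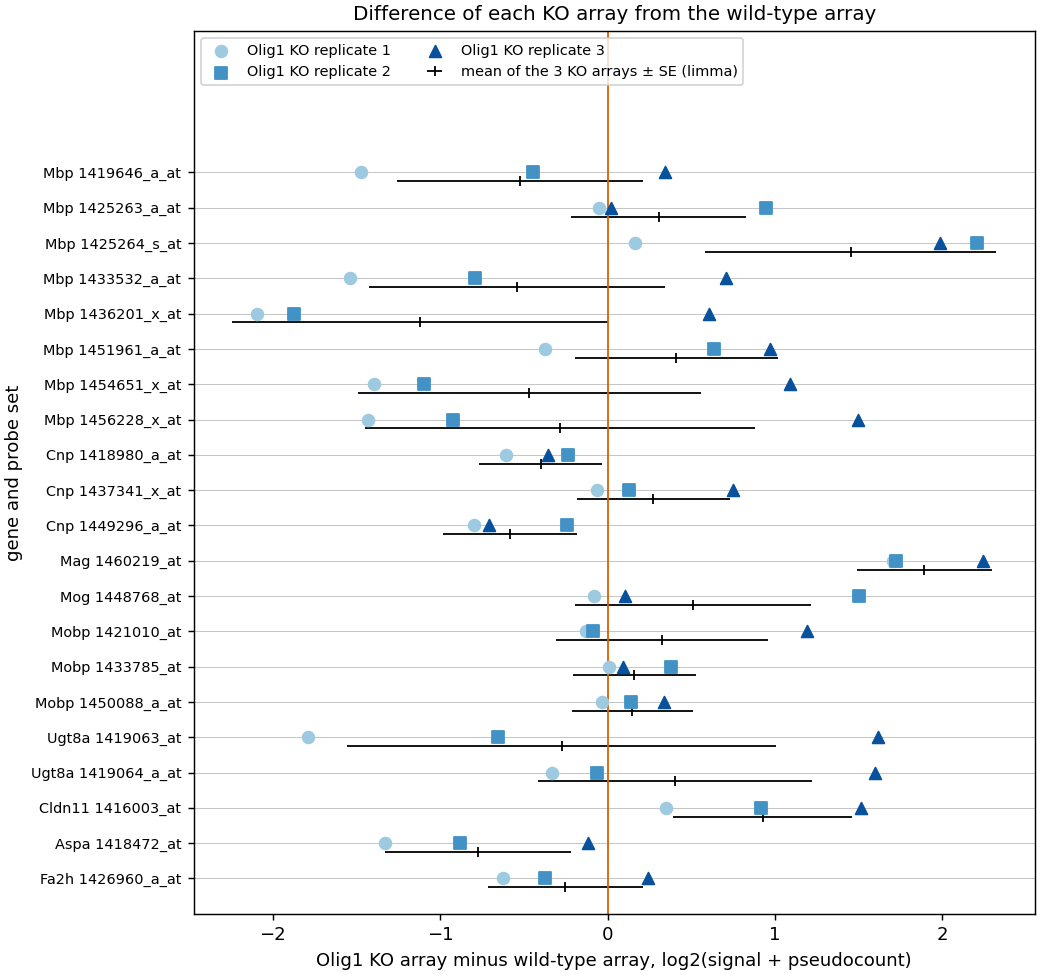
Difference of each Olig1 KO array from the wild-type array for the 21 probe sets, in log2(signal + 14.4), with the mean of the 3 KO arrays and its standard error from limma below each row (black). The wild-type array is the line at 0; the KO arrays fall on both sides of it for most Mbp and Ugt8a probe sets, and all to the right of it for Mag and Cldn11.

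Among the structural proteins of compact myelin, Mbp was detected, and its 8 probe sets differed in where they placed the wild-type array. The probe set that represented it in the gene fit, 1419646_a_at, gave 53.2, 123.7 and 224.4 in KO replicates 1, 2 and 3, and 173.5 in the wild-type array. The wild-type array lay inside the KO range, which spanned 4.22-fold. As a multiple of each array's own background, however, the signal was 2.50, 3.09 and 2.55 in the KO replicates and 5.68 in the wild-type array, above all 3. The difference was -0.52 (SE 0.63, limma adjusted p = 0.99997 in the gene fit). It was -0.049 without KO replicate 1, -0.96 without KO replicate 3 and -1.47 with the array pair as a block. A second probe set, 1433532_a_at, gave 41.4, 79.2 and 249.7 in the KO replicates and 147.5 in the wild-type array. It placed the arrays in the same order by signal. As a multiple of background it was 1.95, 1.98 and 2.84 in the KO replicates and 4.83 in the wild-type array, again above all 3. Another one above background throughout, 1451961_a_at, gave 65.4, 146.7 and 189.1 in the KO replicates and 89.2 in the wild-type array, which again lay inside the KO range but below KO replicate 2. Over background it was 3.08, 3.67 and 2.15 in the KO replicates and 2.92 in the wild-type array, within the KO range on this scale too.

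The 8 Mbp probe sets did not share 1 direction. They target 1 gene and are no replicates of a condition. KO replicate 1 was the lowest KO array for 8 of 8, KO replicate 3 the highest for 6 of 8, and the wild-type array lay inside the KO range for 7 of 8 by signal. As multiples of background, the wild-type array lay inside the KO range for 3 of the 8, above it for 4 and below it for 1. Their KO minus wild-type differences ran between -1.12 (1436201_x_at) and 1.45 (1425264_s_at). The suffixes of these 2 probe sets mark probes shared with other sequences, and both were at background in 2 arrays. The probe set 1425264_s_at gave 15.5, 108.9 and 91.5 in the KO replicates and 12.3 in the wild-type array, where KO replicate 1 and the wild-type array did not exceed background. The probe set 1436201_x_at gave 5.94, 9.26 and 118.0 in the KO replicates and 72.5 in the wild-type array, at background in KO replicates 1 and 2. The remaining ones were 1456228_x_at, at background in KO replicates 1 and 2, 1454651_x_at, at background in every array, and 1425263_a_at, at background in KO replicate 3.

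The arrays stood in one order, KO replicate 1 lowest, then KO replicate 2, the wild-type array and KO replicate 3, for 9 of the 21 probe sets, from the 4 genes Mbp (5), Ugt8a (2), Mobp and Fa2h, where 4.69% of all probe sets had this order. Of these 9 probe sets, 3 were at background in all 4 arrays, those of Mobp, Ugt8a (1419064_a_at) and Mbp (1454651_x_at), so their order carries no level. KO replicate 3 exceeded KO replicate 1 by at least 1 log2 unit for 12 of the 21 probe sets and was lower by as much for 0, where the background was 10.8% and 9.58% of all probe sets. KO replicate 1 was at least 1 log2 unit below the wild-type array for 7 of them, where 4.25% of all probe sets were. KO replicate 3 was at least 1 log2 unit above the wild-type array for 8 of them, where 9.97% of all probe sets were. Most of the 12 and most of the 7 were probe sets of 1 gene, Mbp, so these counts are not counts of genes. The same 3 probe sets at background in all 4 arrays were among the 12 and among the 8, and Mbp 1454651_x_at was also among the 7. Background and spike-in signals were also lowest in KO replicate 1 and highest in KO replicate 3, while their wild-type values lay between those of KO replicates 1 and 2. The 18S signal and the actin ratio were likewise highest in KO replicate 3, and lowest in the wild-type array. The Gapdh ratio was also lowest in the wild-type array, but it was highest in KO replicate 2. The part of all these measures in the spread of these genes was not tested.

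Over the 4 arrays, the kept genes whose log2 values lay closest to those of Mbp, after each gene was centred on its mean, were Vegfa, Egln3 and Slc2a3, at Euclidean distances of 0.14, 0.19 and 0.24 log2 units. Vegfa, a growth factor of blood vessels, gave 478.4, 893.5 and 1778 in KO replicates 1, 2 and 3 and 1339 in the wild-type array. Egln3, a prolyl hydroxylase, gave 243.2, 453.3 and 921.8 in the KO replicates and 737.2 in the wild-type array. Slc2a3, a glucose transporter, gave 309.7, 671.7 and 1344 in the KO replicates and 835.4 in the wild-type array. All 3 repeat the order of the arrays seen with Mbp, as the choice of close genes requires. Only 4 arrays stand behind these distances, and the same 4 arrays underlie every gene.

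Mobp, a small basic protein of compact myelin, gave between 1.16 and 24.6 over its 3 probe sets in the KO arrays and between 1.63 and 3.59 in the wild-type array. Every value was under 0.3 times the array's background. Mog, an immunoglobulin-like protein of the outermost myelin surface, gave 1.63, 33.8 and 3.89 in KO replicates 1, 2 and 3 and 2.58 in the wild-type array. The one higher value, in KO replicate 2, was 0.845 times that array's background, so neither gene was detected and no fold change has a size.

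Cnp, which encodes a phosphodiesterase of the myelin cytoplasm that also appears in precursors, was above background in every array with each of its 3 probe sets. The probe set 1418980_a_at gave 743.0, 965.4 and 887.7 in KO replicates 1, 2 and 3, or 865.4 ± 112.9 (SD, n = 3), and 1140 in the wild-type array. The probe set 1449296_a_at gave 399.6, 594.4 and 425.0 in the KO replicates, or 473.0 ± 105.9 (SD, n = 3), and 704.9 in the wild-type array. In both, every KO array was below the wild-type array, with differences of -0.40 (SE 0.37) and -0.58 (SE 0.40) and a limma adjusted p of 0.99998 for each. The probe set that represented Cnp in the gene fit, 1437341_x_at, gave 1860, 2129 and 3283 in the KO replicates and 1944 in the wild-type array. Its suffix marks probes shared with other sequences, its wild-type value lay inside the KO range, and its difference was 0.27 (SE 0.40, limma adjusted p = 0.99997 in the gene fit), or 0.034 without KO replicate 3 and 0.44 without KO replicate 1. The sign of the Cnp difference thus depended on the probe set: averaged over the 3 probe sets it was -0.24.

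Mag, an adhesion protein of the membrane facing the axon, was higher in every KO array. Its single probe set gave 89.9, 91.0 and 137.0 in KO replicates 1, 2 and 3, or 106.0 ± 26.9 (SD, n = 3), and 17.5 in the wild-type array. The groups did not overlap: all 3 KO arrays were above background and the wild-type array was at background. The geometric mean of the KO signals was 3.40 times the wild-type background of 30.5. That ratio leaves out the higher backgrounds of KO replicates 2 and 3, so it is no lower bound of the difference. The difference was 1.89 (SE 0.40) on the log2 scale and did not pass the test (limma adjusted p = 0.99998). The unadjusted p of the limma fit was 0.00482. Left-out KO arrays moved the difference between 1.71 and 1.98. With the array pair as a block it was 1.71 (limma adjusted p = 0.99999). As a multiple of each array's own background the signal was 4.23, 2.27 and 1.56 in KO replicates 1, 2 and 3 and 0.574 in the wild-type array. With a pseudocount of 1 times the median of all values the log2 difference was 0.62, and with 0.02 times it was 2.39. Mag had 1 probe set, so no other measurement repeats it.

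Cldn11, the claudin of the tight junction strands within myelin, was likewise higher in every KO array. It gave 37.5, 62.4 and 101.6 in KO replicates 1, 2 and 3, or 67.1 ± 32.3 (SD, n = 3), and 26.2 in the wild-type array. All 3 KO arrays were above background and the wild-type array was at background. The geometric mean of the KO signals was 2.03 times the wild-type background, which is no lower bound of the difference either. The difference was 0.93 (SE 0.54) on the log2 scale and did not pass the test (limma adjusted p = 0.99998). With the array pair as a block the difference was 0.35. The signal was 1.76, 1.56 and 1.16 times the array's background in the KO replicates and 0.860 times in the wild-type array. Over all probe sets, 0.496% (101) had every KO signal above background and the wild-type signal at it, and 2 of the 21 member probe sets were, those of Mag and Cldn11. The opposite arrangement, which 1.58% of all probe sets showed, was found for 0 members.

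Markers of cells that also use these genes are given beside them. Of 8 meningeal and fibroblast markers measured, 5, 6 and 3 were above background in KO replicates 1, 2 and 3 and 3 in the wild-type array. The summed signal of all 8 was 423.0, 495.2 and 593.7 in the KO replicates and 304.4 in the wild-type array. These sums include markers at background, and over the KO replicates they rose in the same order as the array backgrounds. Foxc1 and Col1a2 were above background in all 4 arrays. Foxc1 gave 208.0, 153.0 and 93.3 in the KO replicates and 83.9 in the wild-type array, so every KO array was higher by signal. Its value in KO replicate 3 was close to that array's background of 87.8, however, while the background of the wild-type array was 30.5. Col1a2 gave 75.4, 74.4 and 126.2 in the KO replicates and 107.5 in the wild-type array. Slc6a13 was at background in every array, and Lum and Ogn were above it in 1 array each. The signal of Dcn was 10.95, 46.7 and 125.6 in the KO replicates and 7.56 in the wild-type array, at background in KO replicate 1 and in the wild-type array. Of 5 Schwann cell markers measured, 4 were above background in every array. Their summed signal was 1712, 1478 and 1240 in the KO replicates and 1926 in the wild-type array, and Ncmap was at background in all 4. The part of such cells in the Mag and Cldn11 signals was not tested.

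**Figure D3:**
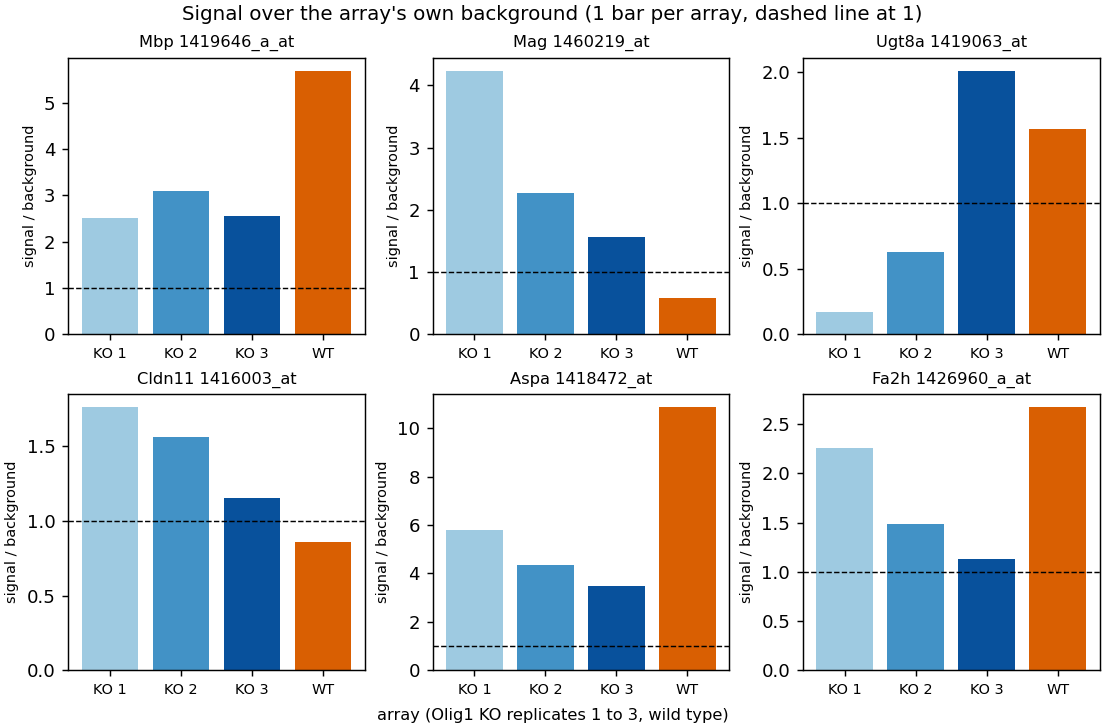
Signal of 6 myelin gene probe sets as a multiple of the array's background, 1 bar per array, with the 3 Olig1 KO arrays (blue) left of the wild-type array (orange) and a dashed line at 1. Mag and Cldn11 are above 1 in the KO arrays only, at 4.23 to 1.56 and 1.76 to 1.16, while Aspa, Fa2h and this Mbp probe set are highest in the wild-type array on this scale.

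Among the lipid enzymes, Ugt8a, the galactosyltransferase that makes galactosylceramide, was at background in at least 1 KO array with each of its 2 probe sets. Its probe set 1419063_at gave 3.59, 25.1 and 176.3 in KO replicates 1, 2 and 3 and 47.8 in the wild-type array. It was above background in KO replicate 3 and in the wild-type array and at background in the other two. The other probe set, 1419064_a_at, gave 9.02, 13.8 and 74.9 in the KO replicates and 15.1 in the wild-type array and was at background in all 4. The differences were -0.28 (SE 1.28) and 0.40 (SE 0.82), with a limma adjusted p of 0.99998 for each.

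Fa2h, the fatty acid 2-hydroxylase, gave 47.9, 59.5 and 99.2 in KO replicates 1, 2 and 3, or 68.9 ± 26.9 (SD, n = 3), and 81.5 in the wild-type array. It was above background in every array, at 2.25, 1.49 and 1.13 times in the KO replicates and 2.67 times in the wild-type array. The wild-type signal lay inside the KO range, and the difference was -0.25 (SE 0.47, limma adjusted p = 0.99998). It was -0.066 without KO replicate 1, -0.50 without KO replicate 3 and -0.62 with the array pair as a block. Aspa, the aspartoacylase that frees acetate from N-acetylaspartate for lipid synthesis, gave 123.0, 173.2 and 305.0 in KO replicates 1, 2 and 3, or 200.4 ± 94.0 (SD, n = 3), and 331.3 in the wild-type array. Every KO array was below the wild-type array, with differences of -1.33, -0.88 and -0.11 in KO replicates 1, 2 and 3. The difference was -0.78 (SE 0.48, limma adjusted p = 0.99997 in the gene fit), and Aspa was the only 1 of the 3 kept members with all KO arrays below the wild-type array, where 20.6% of kept genes were. The Aspa difference was -0.50 without KO replicate 1, -1.11 without KO replicate 3 and -1.33 with the array pair as a block.

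The lists around these genes were described in the same gene fit. Higher and lower refer to signal here, and the list genes were not set out as multiples of each array's background. Of 23 other myelin and mature oligodendrocyte genes measured, 12 were above background in all 4 arrays and 4 in none, among them the regulators Myrf and Nkx6-2 and the gap junction gene Gjb1. Of the 11 kept, 0 passed the test in either direction, 5 were lower and 0 higher in every KO array, where 20.6% and 23.2% of all kept genes were, and the median difference was -0.27, beside -0.00014 over all kept genes. Among the measured genes not kept, some were higher in every KO array. Gal3st1, above background in all 4 arrays, gave 67.0, 75.0 and 109.3 in the KO replicates and 57.7 in the wild-type array. Hapln2, Gpr37 and Nkx6-2 were also higher in every KO array, each at background in at least 1 array. The 3 kept genes with the largest moderated t were Pllp, Cryab and Pmp22. Pllp, a proteolipid of myelin rafts, gave 109.3, 38.2 and 117.2 in KO replicates 1, 2 and 3 and 172.7 in the wild-type array, at background in KO replicate 2. Cryab, a small heat shock protein, gave 914.4, 1165 and 952.2 in the KO replicates and 1424 in the wild-type array. Pmp22, a peripheral myelin protein also made outside nerves, gave 1007, 738.9 and 586.2 in the KO replicates and 1072 in the wild-type array. The KO arrays were all below the wild-type array for these 3, with differences of -0.98, -0.50 and -0.49, none past the test (limma adjusted p = 0.99997 for each).

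Of 15 genes of precursors and newly formed oligodendrocytes measured, 12 were kept and 0 passed the test in either direction. Of these 12, 4 were higher and 1 lower in every KO array, where 23.2% and 20.6% of all kept genes were. Their median difference was 0.06. Nkx2-2, a transcription factor of precursors, gave 193.4, 111.3 and 92.0 in KO replicates 1, 2 and 3 and 370.9 in the wild-type array. The groups did not overlap, and its difference of -1.45 (SE 0.43) did not pass the test (limma adjusted p = 0.99997). Sox10, which switches on myelin genes, gave 131.5, 126.2 and 200.1 in the KO replicates and 105.7 in the wild-type array. By signal, Sox10 was higher in every KO array, as were the proteoglycan genes Cspg4 and Ptprz1, which differed by 0.49 and 0.48.

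Of 15 genes of galactolipid and sphingolipid synthesis and breakdown measured, all were above background in all 4 arrays. Among the 14 kept, 0 passed the test in either direction, and the median difference was -0.13. Of them, 2 were higher and 3 lower in every KO array, where 23.2% and 20.6% of all kept genes were. Cers2, the ceramide synthase of very long chains, gave 1103, 1215 and 1261 in KO replicates 1, 2 and 3 and 760.2 in the wild-type array, with no overlap and a difference of 0.64 (SE 0.31, limma adjusted p = 0.99997). Gla, the lysosomal alpha-galactosidase, gave 186.2, 167.0 and 176.3 in the KO replicates and 260.7 in the wild-type array, a difference of -0.53. Sgpl1, the sphingosine phosphate lyase, differed by -0.69 and its groups overlapped. Of the 7 measured genes around N-acetylaspartate and acetate, 6 were kept, 0 passed the test in either direction, and the median difference was -0.23. In this list 1 was higher and 2 were lower in every KO array, beside the same 23.2% and 20.6% of all kept genes. Acly, which makes acetyl-CoA in the cytosol, gave 2865, 1447 and 1471 in the KO replicates and 2909 in the wild-type array, so KO replicate 1 lay close to wild type. Acat1, a mitochondrial thiolase, gave 3984, 3658 and 3916 in the KO replicates and 5229 in the wild-type array. Slc13a3, a transporter that takes up N-acetylaspartate, gave 99.5, 103.9 and 173.0 in the KO replicates and 90.3 in the wild-type array.

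**Figure D4:**
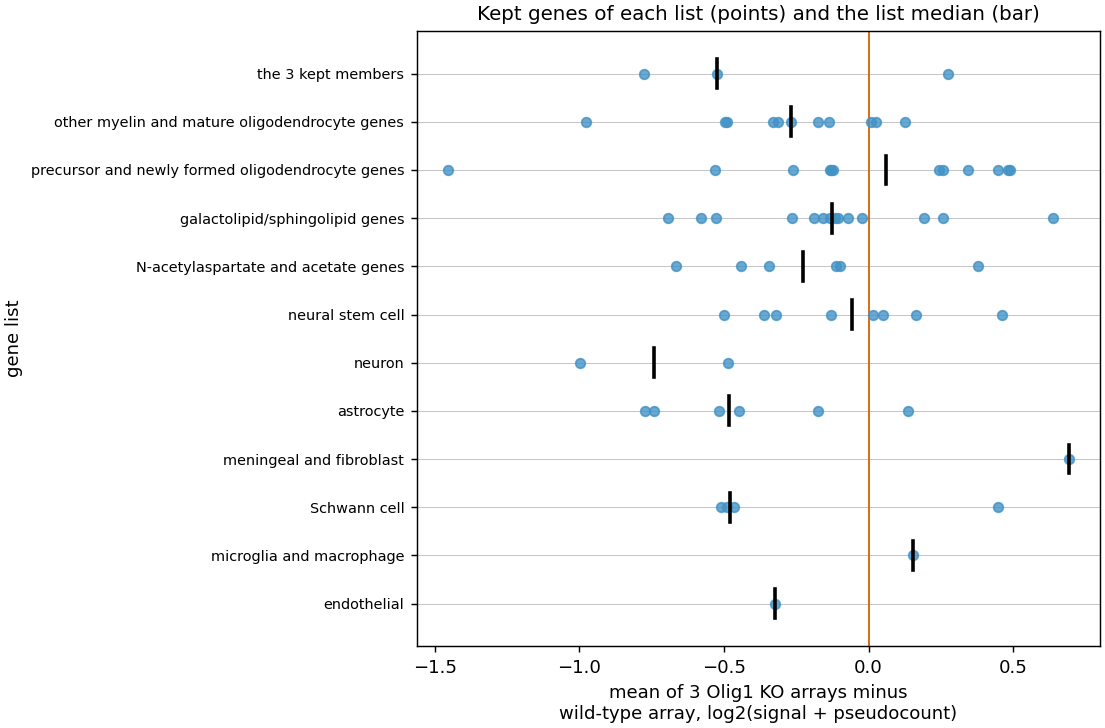
Difference of the 3 Olig1 KO arrays' mean from the wild-type array, in log2(signal + 14.4), for the kept genes (points) of each list and its median (black bar). The 3 kept members have a median of -0.52, the other myelin genes -0.27, the precursor genes 0.06 and the neural stem cell markers -0.06; no point passed the test.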

How the data were processed

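RNA of 4 samples was measured on Affymetrix arrays. The deposited intensities are linear MAS5 signals, as the tool named in the submitters' processing notes makes them; the scaling target is not given in the sources used. Each array's mean after 2% trimming was about 500.2, which shows that the authors scaled the arrays alike. The table held 22690 probe sets, 64 of them controls. The platform annotation gave 1 symbol to 20393, several to 691 and none to 1606. Symbols were updated through gene identifiers in RefSeq's GRCm38.p6 table, from which 24 identifiers were absent.

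Intensities became log2(signal + 14.4), where 14.4 is 0.1 times the median of all values, with no further scaling. KO was compared with wild type by limma 3.58.1 in R 4.3.3 (lmFit, eBayes, two-sided, Benjamini-Hochberg over all features, threshold 0.05), with 2 residual degrees of freedom and 5.23 prior ones in the gene fit. One fit took all 20380 probe sets; the other took the probe set of each gene whose mean log2 value was highest and left out the lowest 40% of genes. The gene fit was tested on simulated data. The number of arrays limits the precision.

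The members, lists and tests were chosen with earlier results of these data known. The text names every member, up to 3 kept genes of each oligodendrocyte, lipid and N-acetylaspartate list by moderated t, and the 3 genes closest to the kept member with the largest SD over arrays among those above background in all of them. Myrf, Nkx6-2, Gjb1, Sox10, Dcn, Lum, Ogn, Slc6a13, Ncmap, Map2, Rbfox3, Tubb3, Syt1, C1qa, Ptprc, Sox2, Nes, Egfr and the printed promoters were picked with their values known. So were Foxc1, Col1a2, Gal3st1, Hapln2 and Gpr37. Alternatives covered scaling, pseudocount, filter, probe set choice, eBayes settings, a background floor, the array pair as a block and each KO array left out.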

Additional observations from a re-analysis of the deposited data

How the results depend on the processing

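No member passed the test under any of the 15 alternatives of the gene fit or the 8 of the probe set fit. Over all genes, 0 passed except without KO replicate 1, where 2 did, neither a member. The median over the member probe sets was 0.15. It was -0.52 when the lowest 40% of probe sets were left out, which left 7 of them. The gene fit's median ran between -1.33 and 0.27. Its low end came with the array pair as a block, which sets KO replicate 1 against wild type. Its high end came with the lowest 60% of genes left out, which kept Cnp alone. Mag and Cldn11 differed by 0.62 and 0.30 with a pseudocount of 1 times the median. Leaving out each KO array moved the members' median between -0.96 and -0.05 in the gene fit, and between -0.20 and 0.29 in the probe set fit; the count over all genes ran between 0 and 2.

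Of 199 values for single members, 18 changed sign, 1 moved with no test and 180 kept their direction. Cnp turned to -0.24 with the mean of all probe sets, to -0.40 with probe sets of no shared suffix first (chosen after seeing the data) and to -0.063 with the array pair as a block. The block left the direction to KO replicate 1 against wild type and also turned Ugt8a 1419064_a_at (-0.33), Mobp 1421010_at (-0.13) and 1450088_a_at (-0.030), Mbp 1425263_a_at (-0.049) and 1451961_a_at (-0.38), Mog (-0.083) and Cnp 1437341_x_at (-0.063). A pseudocount of 1 times the median turned Ugt8a 1419063_at (0.060) and Mbp 1456228_x_at (0.027). Leaving out 1 KO array turned Ugt8a 1419063_at (0.48 without replicate 1; range -1.22 to 0.48), Mbp 1456228_x_at (0.29 without replicate 1 and 0.034 without replicate 2; range -1.18 to 0.29), Mbp 1425263_a_at (-0.015 without replicate 2; range -0.015 to 0.48), Ugt8a 1419064_a_at (-0.20 without replicate 3; range -0.20 to 0.77) and Mobp 1421010_at (-0.11 without replicate 3; range -0.11 to 0.55). The cause was not tested. The labels give no replicate number that the genotypes share, so the replicate number was not used as a block; the array pair was, and no member passed with it. Signals near background limit Mobp, Mog, Ugt8a, Mag and Cldn11.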

Other observations

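The marker lists of other cell types gave the following values. Of 8 neuron markers, 8 were measured and 2 kept, with a median difference of -0.74; their summed signal was 1684, 1095 and 1155 in KO replicates 1, 2 and 3 and 2187 in the wild-type array. The neuron markers above background numbered 5, 6 and 4 in the KO replicates and 8 in the wild-type array. Every KO array was below the wild-type array for Map2 and Rbfox3 and above it for Tubb3 and Syt1, and the other 4 had the wild-type value within the KO range. Of 7 astrocyte markers, 6 were kept, with a median of -0.48, and their summed signal was 6745, 4801 and 5812 in the KO replicates and 7664 in the wild-type array. Of 8 neural stem cell markers, 8 were kept, with a median of -0.06. Of 7 microglia and macrophage markers, 1 was kept, Csf1r, at 118.8, 200.6 and 176.6 in the KO replicates and 144.1 in the wild-type array, and C1qa and Ptprc were at background in every array. Of 6 endothelial markers, 1 was kept, Kdr, and 0 were above background in all 4 arrays. The meningeal and fibroblast list had 1 kept gene, Foxc1 (0.69), and the Schwann cell list 4 (median -0.48). No gene of these lists passed the test (limma, adjusted p under 0.05), and 0 had an unadjusted p under 0.05.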
